A study of Mus musculus with 2 samples.

Results

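The genes described here are 10 components of the contractile apparatus of smooth muscle: *Acta2*, *Tagln*, *Myl9*, *Cnn1*, *Myh11*, *Actg2*, *Mylk*, *Tpm1*, *Tpm2* and *Des*. They were chosen by symbol, and each symbol matched 1 gene among the 31053 genes of the E15.5 matrix and the 27998 genes of the E17.5 matrix. In smooth muscle, a myosin built from the heavy chain *Myh11* and the regulatory light chain *Myl9* pulls on filaments of the actins *Acta2* and *Actg2*, and the kinase *Mylk* switches this on by phosphorylating the light chain when calcium and calmodulin are bound. Tropomyosins (*Tpm1*, *Tpm2*), calponin (*Cnn1*) and transgelin (*Tagln*) lie along or bundle the actin filaments, and desmin (*Des*) forms the intermediate filaments of muscle. *Acta2*, *Tagln* and *Myl9* are also known from pericytes and from contractile fibroblasts, whereas *Myh11* and *Myocd*, a coactivator that switches on contractile genes, are regarded as closer to smooth muscle itself.

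The cells came from the coronal suture, the fibrous joint between the frontal and parietal bones, of wild-type C57/BL6 mouse embryos at E15.5 and E17.5, and were captured with 10x Genomics 3′ reagents. Each stage has 1 matrix of unique molecular identifiers (UMIs) per gene and cell, referred to as its library. For E15.5, 10 sutures were pooled and digested for 45 min in dispase and collagenase II (3 mg/mL), and dead cells were then removed with a kit. For E17.5, 16 sutures from 2 litters went through collagenase IV (2 mg/mL, 30 min) and FACS in 3 batches. Because stage, enzyme, sorting and embryos differ together, they cannot be told apart. No test was run between stages or between groups of cells, and no p-value is given. Pooling left no record of which embryo a cell came from.

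The authors' labels place 5340 E15.5 cells and 6830 E17.5 cells in 15 clusters: osteogenic (OG1 to OG4 and the proliferative PO1 and PO2), ectocranial (EC1 to EC4), meningeal (MG1 to MG4) and LIG, a ligament-like cluster above the suture. Of the 5340, 5335 were found in the E15.5 matrix and used, 93 of them outside the authors' limits on cells and kept here. LIG had 497 and 675 of the cells used. A labelled cell held a median of 8510 UMIs (E15.5) or 12302 UMIs (E17.5). None of the E15.5 cells (0 of 5335) has the UMI total that the authors' table gives for it, the median of the table being 11513, whereas the totals of all 6830 E17.5 cells are equal. The E15.5 counts used here are therefore not those the authors clustered. E17.5 barcodes end in 1, 2 or 3, a suffix that the labels do not tie to batches. Suffix 1 stands apart and holds 32 of the 675 LIG cells and 0 of the 423 MG1 cells. The libraries share 94 barcode sequences and the pairs of suffixes 8, 9 and 20. Doublets were kept, and leaving out the cells with the highest Scrublet scores was tried as an alternative.

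Unlabelled cells with 5 or more UMIs of *Rgs5*, a regulator of G protein signalling typical of pericytes, served as the pericyte reference, with 64 E15.5 cells and 151 E17.5 cells. The limit cut through few cells, as 4 cells held 4 *Rgs5* UMIs and 4 held 5 at E15.5, against 7 and 11 at E17.5. *Acta2* had 1319 CPM in the E15.5 cells with 4 *Rgs5* UMIs and 3679 CPM in those with 5, and 328 and 789 CPM in the corresponding E17.5 cells. Unlabelled cells with 5 or more summed UMIs of the complement genes *C1qa*, *C1qb* and *C1qc* (358 and 619 cells) served as the macrophage reference, which should lack the contractile genes. Levels are given as CPM, the UMIs of a gene summed over the cells of a group per 1000000 UMIs of that group, with exact Poisson 95% intervals. Shares of cells have exact binomial (Clopper-Pearson) 95% intervals. Both intervals cover counting error only.

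LIG was described by 7 ligament markers. The paper names all 7 for this cluster from the same cells, so their levels are no test of the label. In the E15.5 library 5 of these reached at least 2 times the level of the remaining labelled cells, and 6 did in the E17.5 library. Of the 12150 genes with at least 50 UMIs in the labelled cells of each library, 2.17% and 2.56% did. *Tnmd*, encoding a membrane protein of tendon cells, had 536 and 664 CPM in LIG against 67.5 and 117 CPM in the other labelled cells. *Tac1*, the precursor of substance P, had 55.4 and 340 CPM against 10.4 and 11.4 CPM. Apart from *Rgs5*, which chose the cells, all 9 other pericyte markers were at least 2-fold above LIG in the pericyte reference in both libraries. Of all genes tested, 9.11% were. Among these markers was the potassium channel gene *Kcnj8* with 374 and 690 CPM. In LIG, *Rgs5* was at 1.25 and 6.19 CPM, beside 0.251 and 5.39 CPM in the macrophage reference, and the pericyte marker *Higd1b* had 0 UMIs at E15.5 and was at 0.326 CPM in the E17.5 library. Summed over the 9 pericyte markers other than *Rgs5*, LIG had 477 and 524 CPM, EC4 603 and 908 CPM, and the pericyte reference 2483 and 3995 CPM. Most of the LIG sum came from 1 marker, *Ndufa4l2*, in both libraries. Against the other labelled cells, 1 of the 10 pericyte markers was at least 2-fold higher in LIG at E15.5 and 0 at E17.5. At least 2-fold lower were 2 and 4, where 6.67% and 6.82% of genes were. The 2 markers at 0 in LIG were *Higd1b* and *Vtn*, both at E15.5.

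LIG was the cluster with the highest CPM for 6 of the 10 contractile genes at E17.5, and for 1 of them, *Myl9*, at E15.5. At E17.5, 7 of the 10 were at least 2-fold above all other labelled cells (*Acta2*, *Tagln*, *Myl9*, *Cnn1*, *Myh11*, *Actg2* and *Tpm1*), where 2.56% of the 12150 genes with at least 50 UMIs in the labelled cells of each library were. At E15.5, 1 of the 10 was (*Myl9*), against 2.17% of those genes, and *Myl9* was also the 1 gene past the limit in both libraries, against 0.757%. Of the 10 genes 9 passed that filter, *Myh11* being too rare with 9 and 26 UMIs over all labelled cells. The median ratio of LIG to the other labelled cells over the 10 genes was 1.40 at E15.5 and 2.94 at E17.5, beside 0.991 and 0.954 over all genes tested. The 2 genes at least 2-fold lower were *Cnn1* and *Des* at E15.5 and *Mylk* and *Des* at E17.5, where 6.67% and 6.82% of genes were, so that *Des* was the 1 gene lower in both, against 3.45% of genes. The clusters were made by the authors from these cells and genes, so the ratios describe LIG and are no test of it. *Tpm1* lay just inside the limit at E17.5 with 2.01, and *Tpm2* was the next below it with 1.15.

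**Figure D1:**
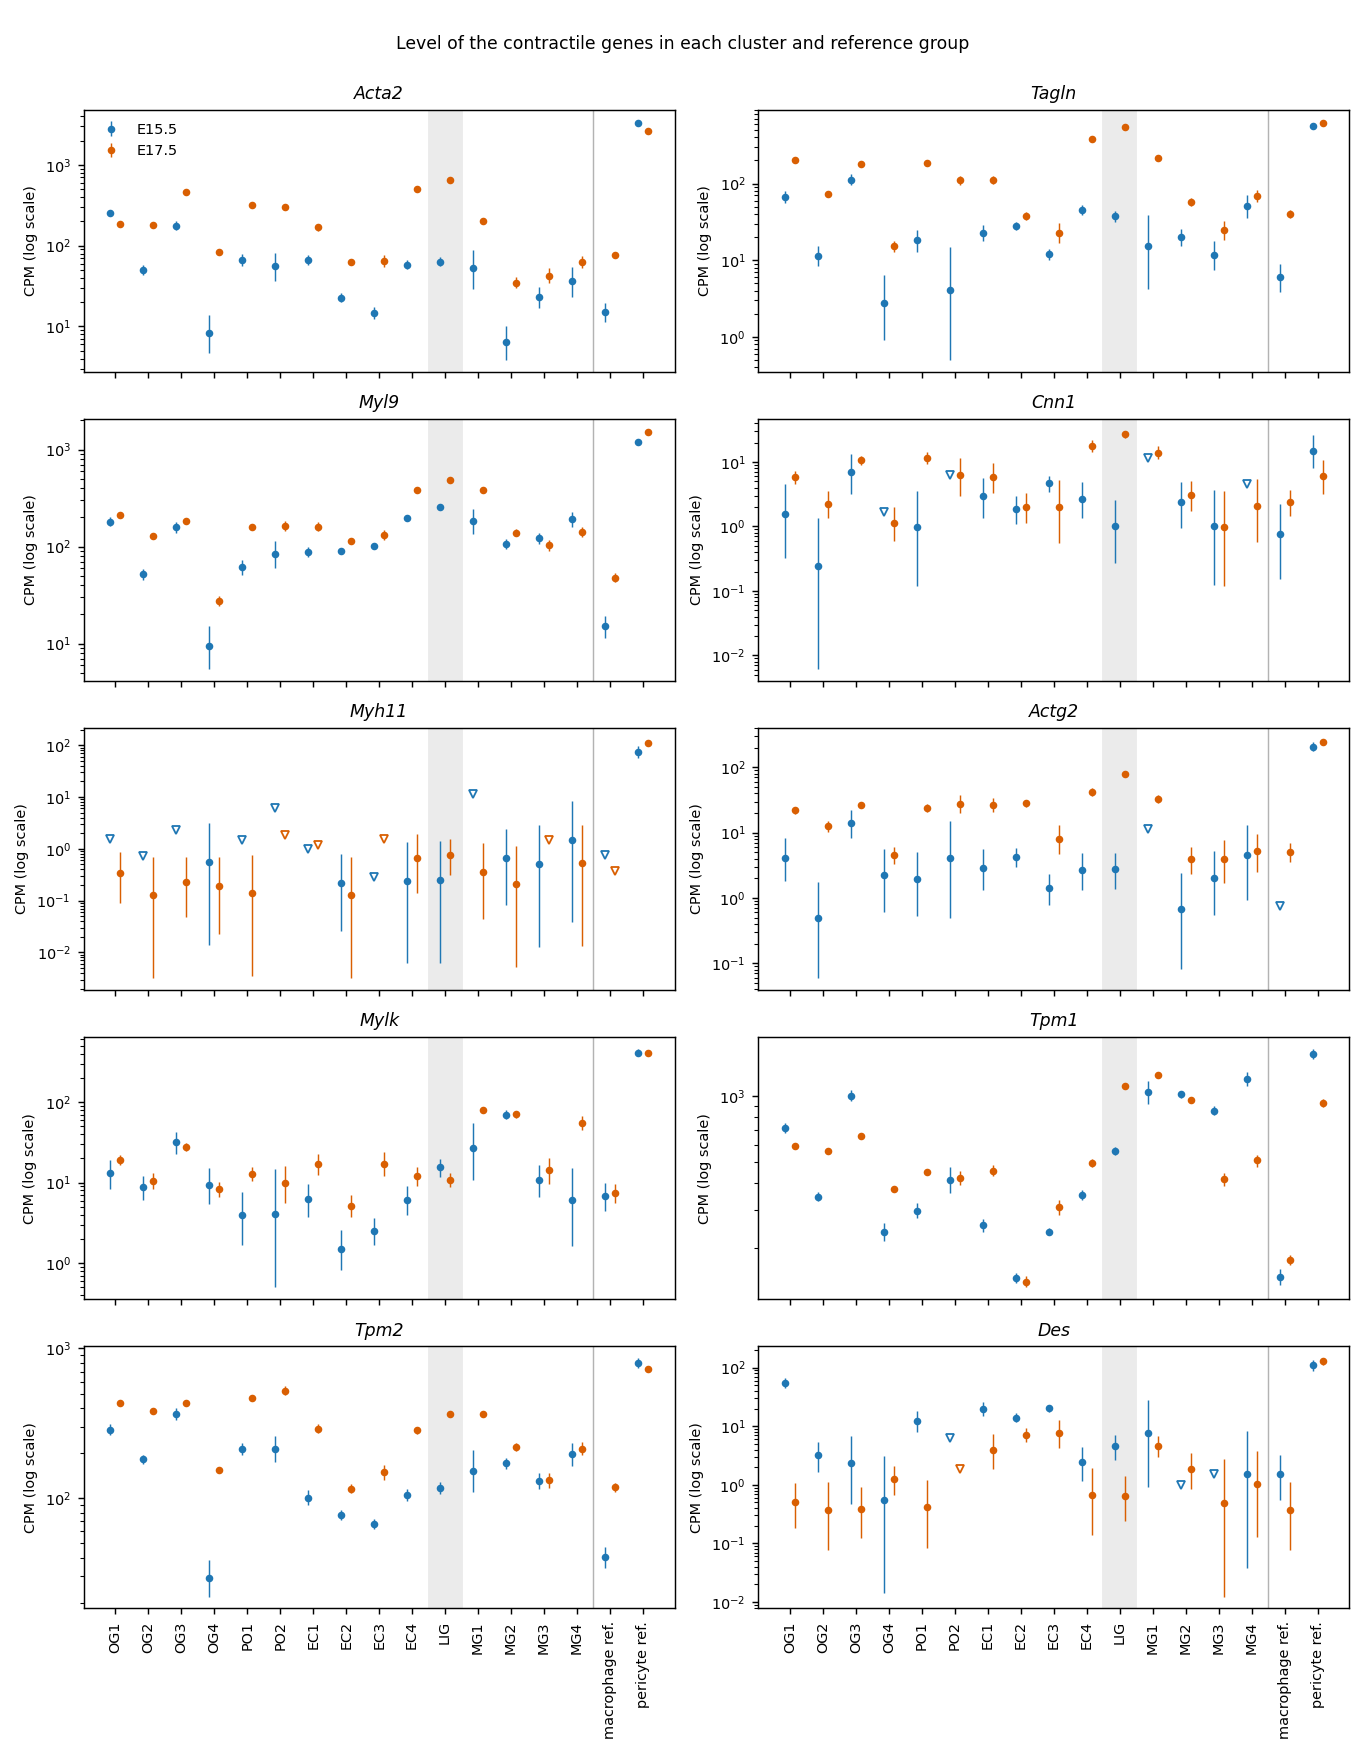
Level in CPM (log scale) of each of the 10 genes in the 15 clusters, the macrophage reference and the pericyte reference, with E15.5 in blue and E17.5 in orange; points are summed levels, bars are exact Poisson 95% intervals, open triangles mark the limit of 3 counts where the count was 0, and the grey band marks LIG. *Acta2* in LIG stands at 63.2 CPM at E15.5 and 654 CPM at E17.5, and *Myh11* is above 2 CPM in the pericyte reference only.

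*Acta2*, the alpha actin of smooth muscle (ENSMUSG00000035783, chromosome 19 from 34241090 to 34255590, minus strand), had 252 UMIs in the LIG cells of E15.5, or 63.2 CPM (55.6 to 71.5), and 6018 UMIs in those of E17.5, or 654 CPM (637 to 670). At E17.5, LIG was followed by EC4, the ectocranial cluster that the authors place above the suture, with 506 CPM (485 to 527) and by OG3 with 467 CPM (455 to 479), and none of these 3 intervals overlap. The lowest was MG2 with 34.7 CPM. At E15.5, LIG ranked 5 of the 15, and its interval overlapped those of PO1 (66.6 CPM), EC1 (66.3 CPM) and EC4 (58.4 CPM). The first there was OG1 with 252 CPM, but 326 of its 485 *Acta2* UMIs lay in 16 cells with 20 or more UMIs of 11 skeletal muscle markers, and without such cells OG1 had 91.1 CPM, PO1 48.8 CPM and EC1 47.5 CPM. OG3, with 178 CPM, was then first, and LIG came after OG3 and OG1. The ratio of LIG to the other labelled cells was 1.40 (1.23 to 1.60) at E15.5 and 3.00 (2.91 to 3.09) at E17.5. The macrophage reference held 15.1 and 76.9 CPM, so LIG was 4.19 and 8.50 times above it. At E17.5, 14 of the 619 cells of this reference (2.26%) held 10 or more *Acta2* UMIs, so its level there is no plain background. What these 14 cells were was not tested.

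*Tagln*, encoding transgelin (ENSMUSG00000032085, chromosome 9 from 45929619 to 45936058, minus strand), had 150 UMIs in LIG at E15.5, or 37.6 CPM (31.8 to 44.1), and 5000 UMIs at E17.5, or 543 CPM (528 to 558). Its ratio to the other labelled cells was 1.49 at E15.5 and 4.12 (3.99 to 4.26) at E17.5, not distinguishable from that of *Cnn1*, the largest of the 10. At E17.5, the order was LIG, EC4 with 380 CPM and MG1 with 215 CPM, and the intervals of neighbours did not overlap. At E15.5 it was highest in OG3 with 113 CPM, followed by OG1 with 66.6 CPM. *Cnn1*, encoding calponin 1 (ENSMUSG00000001349, chromosome 9 from 22099216 to 22109630, plus strand), was among the rare ones, with 4 UMIs in LIG at E15.5 (1.00 CPM, 0.273 to 2.57) and 248 at E17.5 (26.9 CPM, 23.7 to 30.5). At E17.5, LIG exceeded EC4 with 17.8 CPM (14.1 to 22.2) and MG1 with 14.0 CPM, and was 4.14 times the other labelled cells. At E15.5, *Cnn1* was at 0.403 times the other labelled cells (0.108 to 1.06), an interval that includes no difference, and OG3 with 6.96 CPM and EC3 with 4.66 CPM overlapped at the top.

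The myosin light chain, its kinase and the heavy chain had different orders of clusters. *Myl9* (ENSMUSG00000067818, chromosome 2 from 156775420 to 156781658, plus strand) was highest in LIG in both libraries, with 255 CPM in the E15.5 library (240 to 271) and 491 CPM in the E17.5 library (477 to 505). It was the only member with this order in both, and EC4 at E15.5 (197 CPM) and MG1 at E17.5 (388 CPM) came second, outside the intervals of LIG. *Mylk*, the light chain kinase (ENSMUSG00000022836, chromosome 16 from 34745210 to 35002420, plus strand), was instead highest in the meningeal clusters, with 70.1 CPM in MG2 at E15.5, and 79.6 CPM in MG1 and 70.7 CPM in MG2 at E17.5, whose intervals overlap. LIG had 15.54 CPM of it at E15.5 (11.9 to 19.9) and 10.8 CPM at E17.5 (8.74 to 13.1). Relative to the other labelled cells, *Mylk* in LIG was 1.53 times as high (1.15 to 1.99) at E15.5 and 0.459 times (0.371 to 0.562) at E17.5. *Myh11*, the heavy chain (ENSMUSG00000018830, chromosome 16 from 14194535 to 14291372, minus strand), was represented by 1 UMI in the LIG cells of E15.5 and by 7 in those of E17.5, or 0.251 and 0.760 CPM. LIG was nominally first at E17.5, but its interval (0.306 to 1.57) overlapped that of EC4 with 3 UMIs, and the highest level in any cluster at E15.5 rested on 1 UMI in MG4.

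*Actg2*, the gamma actin of enteric smooth muscle (ENSMUSG00000059430, chromosome 6 from 83512905 to 83536265, minus strand), had 11 UMIs in LIG at E15.5 (2.76 CPM) and 739 at E17.5 (80.3 CPM, 74.6 to 86.3). At E17.5 it was highest in LIG, followed by EC4 with 42.1 CPM, and was 3.99 times the other labelled cells. Its relation to *Acta2* differed between clusters: at E17.5 there were 12.3 *Actg2* UMIs per 100 *Acta2* UMIs in LIG, 44.6 in EC2, 5.60 in OG3 and 9.15 in the pericyte reference. Coding sequences of actin genes are nearly identical, so the levels of both are uncertain as far as reads fell in shared stretches.

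The tropomyosins and desmin were not highest in LIG in either library. *Tpm1* (ENSMUSG00000032366, chromosome 9 from 67022590 to 67049406, minus strand) was present in every cluster, with 562 CPM in the LIG cells of E15.5 and 1117 CPM (1096 to 1139) in those of E17.5, second to MG1 with 1254 CPM. At E15.5 it was highest in the meningeal clusters, from 857 CPM in MG3 to 1201 CPM in MG4, and in OG3 with 1007 CPM. *Tpm2* (ENSMUSG00000028464, chromosome 4 from 43514711 to 43523765, minus strand) was led by osteogenic clusters in both libraries, OG3 with 365 CPM at E15.5 and PO2 with 523 CPM at E17.5, and had 117 and 368 CPM in LIG. *Des* (ENSMUSG00000026208, chromosome 1 from 75360329 to 75368579, plus strand) was low in LIG, with 18 UMIs (4.51 CPM) and 6 UMIs (0.652 CPM). Its highest level at E15.5, 54.6 CPM in OG1, came with the same 16 cells, which held 99 of the 105 *Des* UMIs, and without them OG1 had 3.44 CPM. In EC3 of E15.5, by contrast, 216 *Des* UMIs (20.1 CPM) were spread over 177 cells, none of them with 20 or more skeletal muscle UMIs and none with more than 3 *Des* UMIs. EC3 was the first cluster for *Des* at E17.5, with 7.62 CPM, overlapping EC2 with 7.17 CPM.

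EC4 came second after LIG for 5 of the 10 genes at E17.5 (*Acta2*, *Tagln*, *Cnn1*, *Myh11* and *Actg2*). At E17.5, *Actg2* was 1.91 times EC4 (1.62 to 2.25), *Tpm1* 2.26 times (2.16 to 2.37), and *Acta2* 1.29 times (1.23 to 1.36). At E15.5, LIG and EC4 were apart for *Myl9* (1.29, 1.18 to 1.42), *Mylk* (2.55, 1.58 to 4.23) and *Tpm1* (1.60, 1.496 to 1.71). For *Acta2* at E15.5 the ratio was 1.08 (0.903 to 1.30) and for *Tagln* 0.832 (0.666 to 1.04), which were not distinguishable from 1 at this depth.

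**Figure D2:**
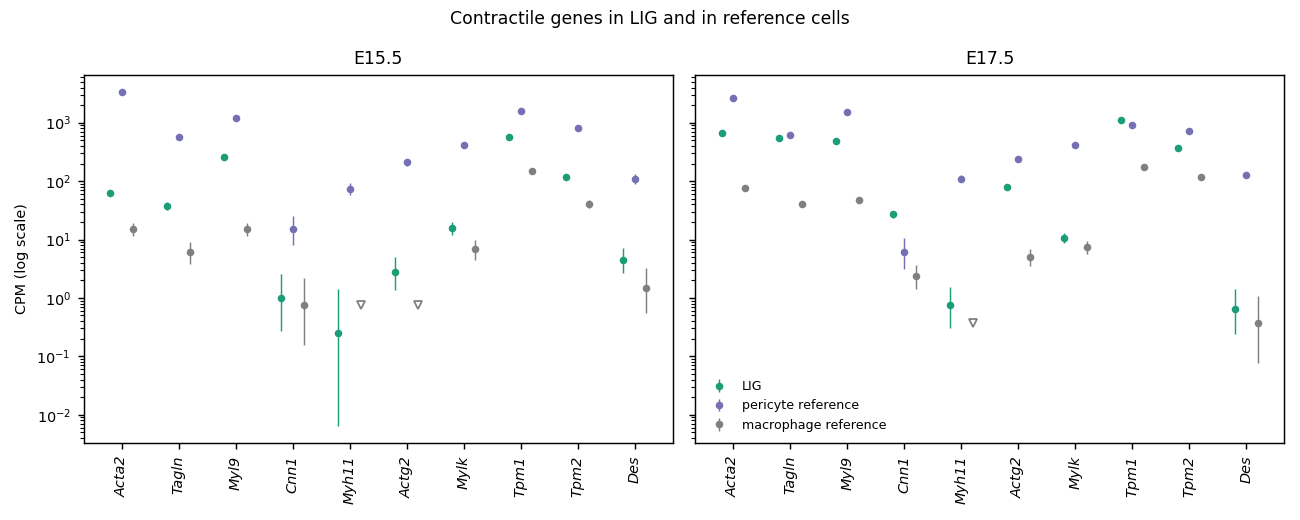
CPM (log scale) of the 10 genes in LIG (green), the pericyte reference (purple) and the macrophage reference (grey), at E15.5 on the left and E17.5 on the right; bars are exact Poisson 95% intervals and open triangles the limit of 3 counts where the count was 0. At E15.5 all 10 genes are higher in the pericyte reference than in LIG, and at E17.5 *Cnn1* and *Tpm1* are higher in LIG.

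The pericyte reference gave a second scale for LIG. At E15.5, all 10 genes were at least 2-fold higher in the pericyte reference than in LIG, where 15.9% of genes were, and at E17.5 6 of them (*Acta2*, *Myl9*, *Myh11*, *Actg2*, *Mylk* and *Des*), where 16.3% were. The same 6 passed in both libraries, against 9.11% of genes. In the other direction, 0 genes were at least 2-fold lower in the reference at E15.5 and 1 at E17.5, *Cnn1*, where 20.3% and 12.3% of genes were, and 0 in both, against 8.95%. The median ratio over the 10 genes was 19.7 and 3.04, beside 1.02 and 1.13 over all genes tested. *Acta2* had 3325 CPM in the pericyte reference at E15.5 and 2630 CPM at E17.5, 52.6 and 4.02 times LIG. *Actg2*, with 208 and 241 CPM, was 75.5 times LIG (41.2 to 154) at E15.5, on 11 UMIs in LIG. At E17.5 it was 3.00 times LIG (2.67 to 3.37).

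*Tagln* was nearly level at E17.5, with 609 CPM in the pericyte reference and 543 CPM in LIG (ratio 1.12, 1.05 to 1.19). *Cnn1* was lower in the reference there, with 12 UMIs or 6.08 CPM (3.14 to 10.6), 0.226 times LIG (0.115 to 0.402), whereas at E15.5 the reference with 13 UMIs was 15 times LIG (4.64 to 63.2). *Tpm1* was 2.78 times LIG at E15.5 and 0.833 times (0.792 to 0.875) at E17.5. The genes farthest from LIG at E17.5 were *Des*, with 127.7 CPM and 196 times LIG (88.8 to 539), *Myh11*, with 110.5 CPM and 145 times (69.4 to 366), and *Mylk*, with 407 CPM and 37.9 times (30.7 to 47.2). At E15.5 the reference had 109.96 CPM of *Des*, 74.1 CPM of *Myh11* and 411 CPM of *Mylk*. *Myocd* was at 12.7 and 6.08 CPM in the reference, and in LIG at 0 UMIs at E15.5, which allows up to 0.752 CPM, and at 0.217 CPM at E17.5.

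Levels within the pericyte reference were uneven. A *Myh11* UMI was present in 16 of its 64 E15.5 cells and in 52 of its 151 E17.5 cells. At E17.5, cells with one had 5181 CPM of *Acta2* (5014 to 5351), 705.8 CPM of *Mylk* and 1105 CPM of *Tagln*, and cells without had 1201, 240 and 331 CPM. *Kcnj8* went the other way in size, with 639 CPM (582 to 701) and 718 CPM (672 to 766), and *Des* had 124 and 130 CPM, with overlapping intervals for both. At E15.5 *Acta2* was at 6505 and 1699 CPM. *Des* was there at 161 CPM (118 to 214) with *Myh11* and 84.0 CPM (61.9 to 111) without, intervals that do not overlap. The cells with *Myh11* were deeper, with a median of 12290 against 11214 UMIs at E17.5 and 13362 against 9814 UMIs at E15.5, and the part of depth was not tested. LIG at E17.5 had 654 CPM of *Acta2*, 491 of *Myl9*, 80.3 of *Actg2* and 543 of *Tagln*. Reference cells without *Myh11* were there under 2-fold above LIG for *Acta2*, *Myl9* (748 CPM) and *Actg2*, and below LIG for *Tagln*. For *Mylk* and *Des* they stayed over 2-fold above LIG. The counts of genes above LIG take both kinds of reference cell together.

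**Figure D3:**
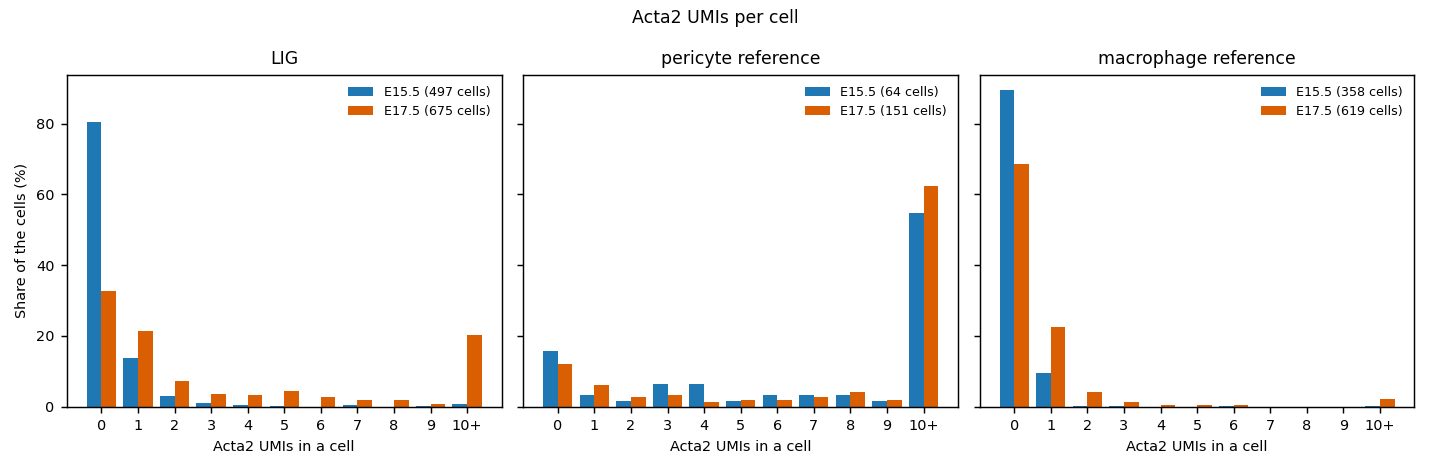
Share of cells in percent (bars, from 0) by the number of *Acta2* UMIs in the cell (10 stands for 10 or more), in LIG, the pericyte reference and the macrophage reference, with E15.5 in blue and E17.5 in orange. In LIG at E17.5, 32.6% of the cells have 0 *Acta2* UMIs and 20.3% have 10 or more, whereas at E15.5 80.5% have 0.

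Single cells of LIG were far from uniform. An *Acta2* UMI was found in 97 of the 497 E15.5 cells (19.5%) and in 455 of the 675 E17.5 cells (67.4%). In the macrophage reference the shares were 10.6% and 31.5%, at median depths of 9892 and 10114 UMIs against 7115 and 12300 in LIG. With each cell thinned at random to 3000 UMIs, 9.34% (6.89 to 12.3) of E15.5 LIG cells and 42.5% (38.8 to 46.3) of E17.5 LIG cells kept an *Acta2* UMI, against 3.75% (2.01 to 6.32) and 12.9% (10.4 to 15.8) in the macrophage reference and 76.6% and 74.8% in the pericyte reference. Thinning left out 15 LIG cells and 11 macrophage reference cells of E15.5 and no E17.5 cell. At E17.5, a thinned *Myl9* UMI was found in 61.2% of LIG cells, a *Tagln* UMI in 48.6%, an *Actg2* UMI in 12.4% and a *Cnn1* UMI in 4.59%. Thinned *Myh11* was found in 0 of 675 LIG cells, which allows up to 0.444% of cells with a UMI at 3000 UMIs per cell, beside 19.2% of the pericyte reference, and without thinning 7 LIG cells (1.04%) held a UMI.

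Several members were found together in LIG cells more often than the product of their shares gives. Of the *Acta2*-positive LIG cells, 85.7% (82.2 to 88.8) also held a *Tagln* UMI at E17.5, against 45.0% (38.3 to 51.8) of those without *Acta2*, and 33.0% (23.8 to 43.3) against 14.0% (10.8 to 17.8) at E15.5. After thinning, these were 70.7% against 32.2% at E17.5 and 22.2% against 5.95% at E15.5. For *Actg2* the thinned shares at E17.5 were 24.0% (19.2 to 29.4) with *Acta2* and 3.87% (2.18 to 6.30) without, and for *Cnn1* 9.76% and 0.773%. *Mylk* showed no such link, with 2.44% (0.986 to 4.96) and 2.84% (1.42 to 5.02). Among the 45 pairs of members, 25 had at least 5 expected cells in thinned E17.5 LIG cells, and 22 of these were found together more often than the product of their shares, with a median of 1.14 times and at most 2.12 times, for *Acta2* and *Cnn1*. In EC4 it was 18 of 19 pairs, with a median of 1.41 times.

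The LIG cells were then put in 3 ranges of *Acta2* UMIs, 0, 1 to 4, and 5 or more. At E17.5 these held 220, 239 and 216 cells with median depths of 10011, 11933 and 15711 UMIs, and the last held 93.4% of all *Acta2* UMIs of LIG. Close to the limit were 22 cells at 4 UMIs and 29 at 5, and 137 cells had 10 or more, so the ranges are cuts through a count and not cell types. At E15.5, 400, 90 and 7 cells fell in the ranges, with median depths of 7022, 7834 and 12487 UMIs. The 7 cells of the last held 131 of the 252 *Acta2* UMIs of LIG, or 52.0%. The E15.5 level and ratios of *Acta2* in LIG thus rest in large part on 7 cells.

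**Figure D4:**
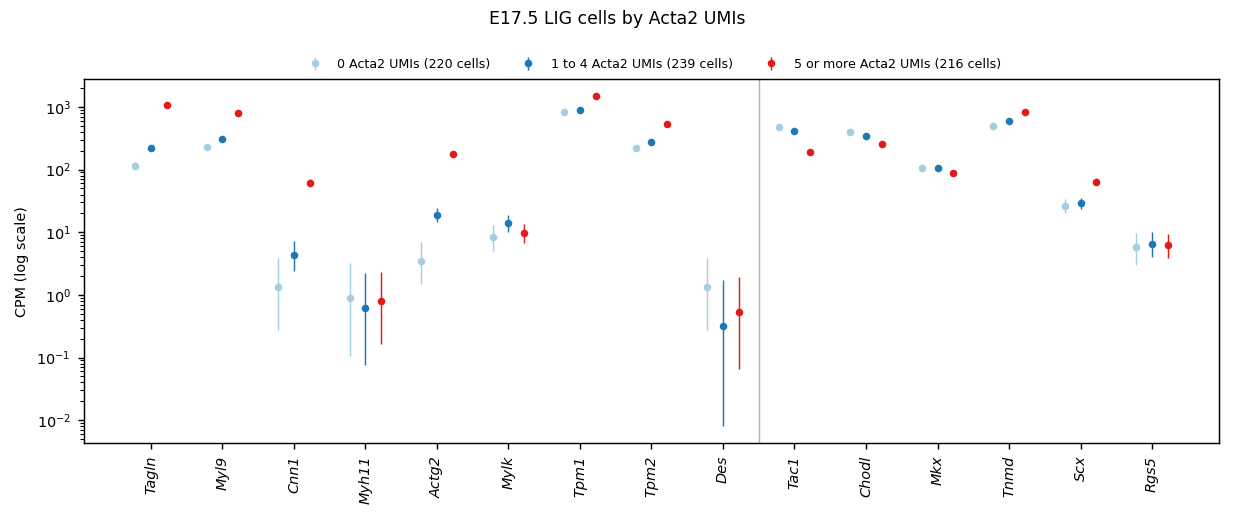
CPM (log scale) in the LIG cells of E17.5 with 0, 1 to 4 and 5 or more *Acta2* UMIs (light blue, blue and red), for the other 9 contractile genes on the left of the line and for *Tac1*, *Chodl*, *Mkx*, *Tnmd*, *Scx* and *Rgs5* on the right; bars are exact Poisson 95% intervals. *Tagln* goes from 116 to 225 to 1074 CPM and *Tac1* from 477 to 415 to 192 CPM, whereas *Rgs5* stays between 5.71 and 6.58 CPM.

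At E17.5, *Tagln* had 116 CPM in LIG cells without *Acta2*, 225 CPM in the middle range and 1074 CPM in the highest. *Actg2* had 3.51, 19.1 and 179 CPM, and *Cnn1* 1.32, 4.39 and 61.7 CPM. *Myl9* had 233, 307 and 804 CPM, so that it was well measured in cells without *Acta2*, and *Tpm1* (827, 907 and 1473 CPM) and *Tpm2* (224, 276 and 533 CPM) were graded less steeply. *Mylk*, with 8.34, 13.8 and 9.62 CPM, and *Myh11*, with 2, 2 and 3 UMIs, followed no order beyond their intervals. Counting *Acta2* itself, which set the ranges, 6 of the 10 members were at least 2-fold higher in the highest range than in the lowest, where 2.71% of the 9205 genes with at least 50 UMIs in E17.5 LIG cells were, and 1 was at least 2-fold lower, where 1.9% were. This was *Des*, which did not pass that filter and rested on 3 UMIs in the lowest range and 2 in the highest, with overlapping intervals. Thinned to 3000 UMIs, *Tagln* was at 115 CPM in cells without *Acta2* and 1039 CPM in those with 5 or more, and *Actg2* at 7.58 and 167 CPM. The ranges were set before thinning and CPM already divides by depth. The thinned levels are therefore no check of the difference in depth between the ranges.

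The ligament genes did not follow the contractile genes as a group. *Tac1* was at 477 CPM without *Acta2* and 192 CPM with 5 or more UMIs, and *Chodl*, encoding a lectin-like membrane protein, at 399 and 256 CPM. *Tnmd*, with 505 and 826 CPM, and *Scx*, the transcription factor of tendon and ligament precursors, with 26.4 and 63.6 CPM, went the other way, and *Mkx*, a tendon homeobox gene, had 105 and 87.4 CPM. The median E17.5 cell of the highest range held 1 *Tac1*, 1 *Mkx*, 12 *Tnmd* and 0 *Rgs5* UMIs beside 14.5 *Acta2* and 12 *Tagln* UMIs. *Rgs5* was at 5.71 CPM without *Acta2* and 6.15 CPM with 5 or more, and *Kcnj8* at 19.8 and 8.82 CPM. Over single LIG cells at E17.5 (n = 675, log2 of UMIs per 10000 plus 1), the correlation with *Acta2* was 0.761 for *Tagln*, 0.660 for *Actg2*, 0.616 for *Myl9*, 0.534 for *Cnn1*, -0.00345 for *Mylk* and -0.248 for *Tac1*, and 0.358 for the total UMIs of the cell. These cells share a library and differ in depth, so the values are descriptions.

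Genes beside the members were ranked by the smaller of their ratios in the libraries, among 6856 genes with at least 50 UMIs in the LIG cells of each. Of these, 7.22% were at least 2-fold higher at E15.5, 1.65% at E17.5 and 0.744% in both, beside 7, 6 and 5 of the 10 members, or 6, 5 and 4 of 9 without *Acta2*, which set the ranges. Of the 10 members, 6 passed this filter. At least 2-fold lower were 18.3% at E15.5, 1.53% at E17.5 and 0.569% in both, beside 2, 1 and 0 members. *Tagln* was first (16.8 at E15.5, 9.26 at E17.5) and *Myl9* seventh (4.20 and 3.46). The other 8 of the leading 10 were genes of cell division: *Tacc3*, *Cenpe*, *Kif23*, *Prc1*, *Hmmr*, *Ccna2*, *Dbf4* and *Ube2c*, with smaller ratios from 3.32 to 4.51, each from 4 to 17 UMIs in the 7 E15.5 cells. Of their 65 UMIs in these cells, 48 lay in 1 cell, and 2 of the 7 cells were at or above the 94th percentile of doublet scores (28.6%, beside 4.75% of the LIG cells without *Acta2*), so the E15.5 side of this ranking rests on few cells. At E17.5, 134 of the 216 cells held a UMI of at least 1 of the 8. *Abcc9*, a subunit of the potassium channel of pericytes, was among the 10 lowest, with 0 UMIs and 0.220 times. Cells with an *Mki67* or *Top2a* UMI made up 215 of the LIG cells at E17.5 and had 818 CPM of *Acta2*, and the 460 without had 552 CPM, with 5 or more *Acta2* UMIs in 36.3% and 30.0%. At E15.5 the order for *Acta2* was the reverse, with 47.9 CPM in the 99 cells with such a UMI and 68.0 CPM in the 398 without. There 1 (1.01%) and 6 (1.51%) of them held 5 or more *Acta2* UMIs, together 52.0% of the *Acta2* UMIs of LIG. The E15.5 order thus rests on few cells, and no interval was computed. *Tagln* had 36.4 and 38.0 CPM there, whereas *Cnn1*, with 2.08 and 0.660 CPM, and *Actg2*, with 3.12 and 2.64 CPM, went the other way. The cycling cells were deeper, at 14397 against 11629 UMIs at E17.5 and 8227 against 6912.5 UMIs at E15.5. The part of depth was not tested.

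Barcode suffix 1 of E17.5 had other levels in LIG than suffixes 2 and 3. In its 32 LIG cells, *Acta2* had 94.3 CPM (64.5 to 133), beside 685 CPM in the 314 cells of suffix 2 and 666 CPM in the 329 cells of suffix 3. *Tagln* had 144, 540 and 574 CPM, and *Actg2* had 0 UMIs in suffix 1, which allows up to 8.84 CPM, and 80.9 and 85.4 CPM in the others. LIG was the highest cluster there for 1 of the 10 genes, and *Acta2* in LIG was 0.736 times the other labelled cells of the suffix. EC4 was likewise low in suffix 1, with 180, 689 and 556 CPM of *Acta2*, and OG3 with 266, 552 and 511 CPM. The pericyte reference held 2565, 2538 and 2738 CPM of *Acta2* in the 3 suffixes and *Myl9* between 1424 and 1581 CPM. The macrophage reference, its cells with 10 or more *Acta2* UMIs included, held 19.9, 57.4 and 117 CPM of *Acta2*. Whether a suffix is a batch or a litter cannot be told from the labels.

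**Figure D5:**
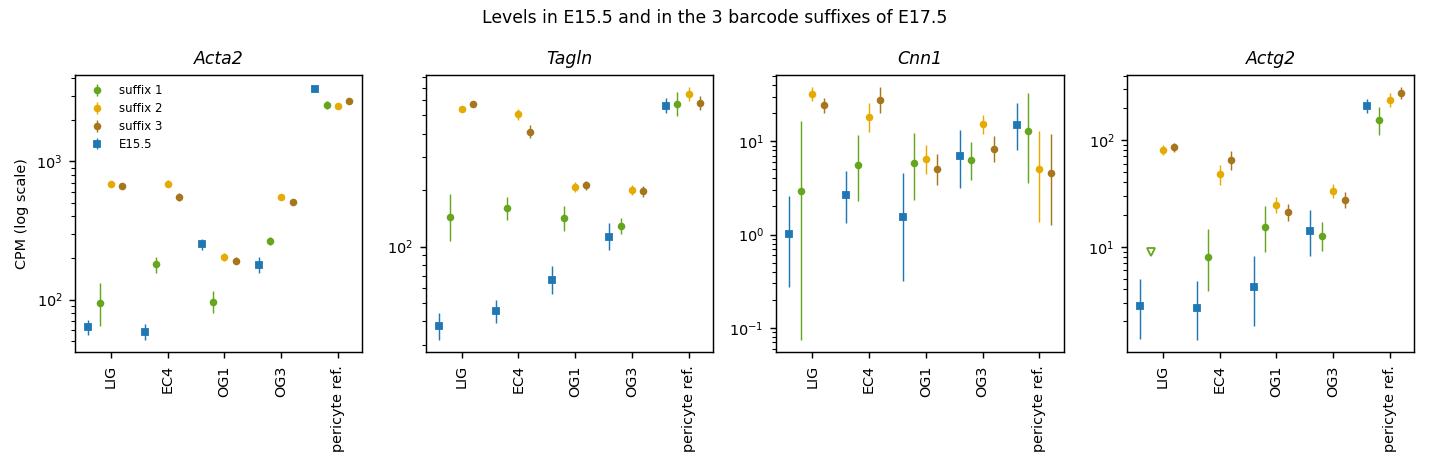
CPM (log scale) of *Acta2*, *Tagln*, *Cnn1* and *Actg2* in LIG, EC4, OG1, OG3 and the pericyte reference, at E15.5 (blue squares) and in the barcode suffixes 1, 2 and 3 of E17.5 (green, yellow and brown circles); bars are exact Poisson 95% intervals and the open triangle is the limit of 3 counts. *Acta2* in LIG is at 94.3 CPM in suffix 1 and at 685 and 666 CPM in suffixes 2 and 3, and in the pericyte reference at 2565, 2538 and 2738 CPM.

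Across the 15 clusters, the genes whose log2(CPM + 1) followed *Acta2* most closely in both libraries, of 12149 ranked, were *Eno1*, *Pdha1*, *Gys1*, *Bok*, *Actr3*, *Gpatch4*, *Ctps*, *Myl12a*, *Tpm2* and *Actg1*. The smaller of the library correlations went from 0.679 for *Actg1* to 0.761 for *Eno1* over 15 clusters that share a library and depth. *Tpm2* was the only member among them. *Tagln* ranked 67th (correlations of 0.604 and 0.846). *Cnn1* ranked far lower, as it had 0.162 in the E15.5 library but 0.873 in the E17.5 library. *Mylk* was at 0.0230 and -0.210, and *Des* at 0.462 and -0.445. The E15.5 values include the OG1 level of *Acta2*, which is 252 CPM with the 16 skeletal muscle cells and 91.1 CPM without such cells.

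Other lists gave the surroundings of the members, to be read beside the shares of all genes given above: 2.17% and 2.56% at least 2-fold higher in LIG, 6.67% and 6.82% lower, and 15.9% and 16.3% higher in the pericyte reference than in LIG (9.11% in both libraries). Of 12 further proteins of the smooth muscle cytoskeleton, 2 were at least 2-fold higher in LIG at E15.5 and 1 at E17.5, the list's median ratio being 0.924 and 1.06. At least 2-fold lower were 2 at E15.5, 2 at E17.5 and 2 in both libraries, against 3.45% of genes in both. *Lmod1*, encoding leiomodin 1, which nucleates actin filaments in smooth muscle, was the 1 higher in both. It had 3.51 and 4.56 CPM in LIG against 1.098 and 0.720 CPM in the other labelled cells. Of 13 non-muscle or paralogous counterparts of the members, 0 were 2-fold higher in either library and 1 was lower, *Tagln2*, with 164 CPM in LIG against 488 CPM at E17.5. *Cnn2* was the nearest to the limit, at 1.60 and 1.76. Of 9 transcription factors and coactivators tied to smooth muscle, 0 were 2-fold higher and 5 and 3 were 2-fold lower. *Srf*, which binds the CArG box in promoters of contractile genes, had 10.3 and 11.9 CPM in LIG against 10.1 and 14.2 CPM. Within LIG at E17.5 it had 4.83 CPM (2.41 to 8.64) without *Acta2* and 16.6 CPM (12.7 to 21.2) with 5 or more UMIs. The 7 E15.5 cells with 5 or more held 0 *Srf* UMIs. Between these ranges 1 of the 9 was 2-fold higher at E15.5, 2 at E17.5 and 0 in both, against 7.22%, 1.65% and 0.744% of genes. Lower were 5, 0 and 0, against 18.3%, 1.53% and 0.569%. Of 9 genes for the control of contraction, among them *Rock1* and *Ednra*, 0 were higher in either library and 1 was lower, *Adra1a*, with 0 UMIs in LIG at E15.5. In the pericyte reference, 6 of these 9 were at least 2-fold above LIG in both libraries. Of 9 immediate early and stress genes that respond to cell dissociation, 0 were 2-fold higher in LIG, 3 and 5 were lower, and 6 and 9 were at least 2-fold higher in the pericyte reference than in LIG. Their part in the results above was not tested.

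*Srf* binds a 10-base element, the CArG box, and the promoters of the members were searched for it on both strands. Promoters (250 bases before to 50 after the start) of 7 of the 10 genes were matched in the RefSeq table of GRCm38.p6. These starts can differ from the gene positions given above, which are from GENCODE. Both *Acta2* stretches below lie inside the *Acta2* gene by those positions. The *Mylk* promoter (34784700 to 34784999) likewise lies inside the *Mylk* gene (34745210 to 35002420). An exact CArG box was found in 1 of the 7, *Myl9*, and in 1.63% of all 32851 promoters of that length, and 1 with 1 other base among the inner 6 was found in *Acta2* (at 84 and at 34 bases before the start) and again in *Myl9* (at 99), against 9.98% of all promoters. The stretches of *Acta2* (chr19:34255438-34255467 and chr19:34255388-34255417, minus strand) and of *Myl9* (chr2:156775284-156775383, plus strand) are shown because these genes set the contrast above, *Acta2* having set the ranges of LIG cells and *Myl9* being first in LIG in both libraries. Capitals mark the matches. A match of letters is not a bound site.
Acta2, upstream match: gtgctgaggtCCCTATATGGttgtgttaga
Acta2, downstream match: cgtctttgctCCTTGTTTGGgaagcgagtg
Myl9: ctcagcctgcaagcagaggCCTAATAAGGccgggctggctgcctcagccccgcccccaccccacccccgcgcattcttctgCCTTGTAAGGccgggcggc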

How the data were processed

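The authors deposited UMI counts per gene and barcode for each stage (10x 3′ v2 chemistry, mm10) and a table of cluster labels. Their methods give Cell Ranger 2.1.1, and the header of the E15.5 matrix gives 3.1.0. The submitters' processing notes name Seurat 3.2.0. The contractile genes, lists and limits were chosen with earlier results of these data known. Barcodes with fewer than 1000 UMIs or 1000 genes, or with over 7.5% of mitochondrial, 3% of Hbb or 3% of Hba UMIs, were dropped, but the labelled cells outside these limits were kept. A gene outside the 10 was to be named if it passed 2-fold in LIG or in the LIG ranges in both libraries, was a defining marker, or was among the 10 most like *Acta2* or the 10 highest or lowest between the ranges. *Higd1b*, *Vtn*, *Ndufa4l2*, *Tagln2*, *Cnn2*, *Srf*, *Adra1a*, *Rock1* and *Ednra* were named after their values were seen. Ratios have exact conditional 95% intervals, and 2-fold is a limit of description. With 1 library per stage, no p-values were computed. Sums were checked on simulated data. Positions are from GENCODE (GRCm38) and promoters from RefSeq. Thinning used random seed 1. Computation was in Python 3.11.15 with scipy 1.17.1, and Scrublet came from scanpy 1.11.5. Protein sequences and the promoters of *Tagln*, *Myh11* and *Actg2* were not used here.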

Additional observations from a re-analysis of the deposited data

Results flagged for a closer look

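Among the ratios of LIG to the other labelled cells and of the pericyte reference to LIG, 3 lay above 1 in one library and below 1 in the other, with an interval that left out 1 in both. *Mylk* in LIG was at 1.53 times the level of the remaining labelled cells at E15.5 and at 0.459 times at E17.5. *Cnn1* in the pericyte reference was 15 times LIG at E15.5 and 0.226 times at E17.5, on 13 and 12 UMIs of the reference. *Tpm1* in the pericyte reference was 2.78 times LIG at E15.5 and 0.833 times at E17.5. The differences between the libraries were not tested, and stage, enzyme and sorting cannot be told apart.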

How the results depend on the processing

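Of 371 ratios recomputed under alternatives, 280 stayed inside the interval of the main ratio and 87 moved. A change of direction was counted only where the main ratio was at least 2-fold above or below 1. Ratios nearer to 1 were not counted as changing direction, even where they crossed 1. By this rule 4 ratios changed direction. All 4 of the last came from suffix 1 of E17.5 taken alone (32 LIG cells): LIG was then at 0.736 times the other labelled cells for *Acta2*, 0.917 for *Cnn1* and 1.80 for *Des*, and the pericyte reference was at 4.41 times LIG for *Cnn1*. In that suffix LIG was the highest cluster for 1 gene (6 in the whole library), 1 gene was at least 2-fold higher in LIG (7), 31.2% of LIG cells held an *Acta2* UMI (67.4%) and 60.0% of these a *Tagln* UMI (85.7%). Thinning to 3000 UMIs gave shares with *Acta2* of 9.34% for E15.5 and 42.5% for E17.5 (19.5% and 67.4%), with 22.2% and 70.7% of these holding *Tagln* (33.0% and 85.7%). With cells weighted equally, 2 genes were at least 2-fold higher in LIG at E15.5 and 2 in both libraries (1 each), the added one being *Myh11* on 1 LIG UMI. A limit of 1.5-fold gave 2 genes at E15.5 (1), adding *Mylk*. Leaving out LIG cells with an *Mki67* or *Top2a* UMI, an alternative chosen after seeing the data, gave 62.6% with *Acta2* (67.4%). No paired analysis was possible because the labels give 1 library per stage and tie no barcode suffix to a batch. Depth limits *Myh11*, *Cnn1*, *Actg2* and *Des* in LIG, which rest on at most 18 UMIs at E15.5.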

Other observations

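Some genes outside the contractile lists differed between the E17.5 LIG cells with 0 and with 5 or more *Acta2* UMIs, and are named here after their values were seen. *Igfbp3*, encoding a secreted binding protein of insulin-like growth factors, had 1599 CPM without *Acta2*, 1042 CPM in the middle range and 381 CPM in the highest. *Igfbp5*, of the same family, had 955, 742 and 254 CPM. *Rspo3*, a secreted enhancer of Wnt signalling, had 131, 118 and 37.1 CPM. *Crabp1*, a cytoplasmic binding protein of retinoic acid, went the other way with 33.4, 99.4 and 187 CPM. Thinned to 3000 UMIs per cell, *Igfbp3* was at 1630 CPM without *Acta2* and 386 CPM with 5 or more. As the ranges were set before thinning, this is no check of their difference in depth.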
